A study of Mus musculus with 12 samples.

Results

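The genes followed here encode the translation initiation factors, the proteins that bring a ribosome to the start codon of an mRNA. Members were the genes whose symbol in the deposited expression table begins with Eif and a digit, without 6 genes that this pattern also finds, which are the eIF2α kinases (the Eif2ak genes) and the eIF2γ genes on the sex chromosomes (Eif2s3x and Eif2s3y). The rule reads symbols alone, and it gave 49 of the 22243 genes in the table. Of these, 44 had a mean of at least 1 TPM, a unit of transcript abundance corrected for length and scaled to 1 total in each library, and were tested, and 5 (Eif4g1, Eif4g2, Eif4e2, Eif4e1b and Eif2d) lay below that level.

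Initiation starts when eIF2, loaded with GTP and the initiator tRNA, joins the small ribosomal subunit together with eIF1, eIF1A, eIF5 and the large scaffold eIF3. The mRNA is brought in through its cap by eIF4E, eIF4G and the RNA helicase eIF4A, after which the complex scans to the start codon, GTP is hydrolysed, and eIF5B joins the large subunit. The exchange factor eIF2B reloads eIF2 with GTP, and the eIF4E-binding proteins hold eIF4E back until mTOR phosphorylates them, so that cytokine mRNAs of activated macrophages are under control at these steps as well as at transcription.

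RNA sequencing was done on bone marrow-derived macrophages (BM-Mɸs) of the C57Bl/6 background to ask which transcripts depend on ErbB4, a receptor tyrosine kinase for neuregulins, in the proinflammatory state called M1. The ErbB4myeKO mice carried LysMCre and floxed ErbB4 alleles, and the ErbB4FF mice were littermates with the floxed alleles alone. LysMCre expresses the recombinase from the lysozyme locus of myeloid cells, so the deletion depends on Cre activity in each culture. Marrow was grown in CMG14-12 conditioned medium, a source of M-CSF, and all 12 cultures were then activated by IFNγ (16 h at 100 U/mL) and next by LPS (6 h at 100 ng/mL), so no unstimulated culture was compared. Of the 6 litters, each gave 1 mouse of each genotype, and no label gives the sex of a mouse.

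Erbb4 itself was at 0.652, 0.313, 0.807, 0.594, 0.280 and 0.852 TPM in the libraries of litters 1 to 6 labelled ErbB4myeKO and at 0.373, 0.397, 0.716, 0.430, 0.372 and 0.411 TPM in those labelled ErbB4FF. The groups overlapped below 1 TPM, and a TPM covers the whole transcript rather than the floxed exon, so this value does not check the labels. Principal isoforms held 59.0 to 74.7% of all TPM in a library, and both libraries of litter 5 had the highest shares, 71.4% in ErbB4myeKO and 74.7% in ErbB4FF. The 8 macrophage markers summed to between 2610 and 6234 TPM in ErbB4myeKO and between 2718 and 7374 TPM in ErbB4FF, with none at 0 in all libraries, and the lymphocyte and erythroid markers to at most 0.696 TPM in any library. Neutrophil markers summed to between 39.7 and 371 TPM in ErbB4myeKO and between 40.1 and 185 TPM in ErbB4FF (10 genes, of which Retnlg was at 0 in all libraries), and dendritic cell markers to between 44.4 and 122 TPM against between 30.4 and 93.8 TPM (6 genes, of which Cd209a was at 0). In RNA from a whole culture, fewer cells of a type and less RNA per cell cannot be told apart.

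Transcripts of the initiation factors summed to 3464 ± 390 TPM in ErbB4myeKO and 3376 ± 560 TPM in ErbB4FF (mean ± SD, n = 6 each), and the sum was higher in ErbB4myeKO in 3 of 6 litters. As a share of the TPM of all principal isoforms this was 0.493 to 0.584% in ErbB4myeKO and 0.456 to 0.572% in ErbB4FF. The mean log2 ratio of the sums within litters was 0.05 ± 0.12, smaller than its spread between litters. No difference in the summed level of the factors could be seen beyond that spread.

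No member passed the test across all genes (limma with litter as a block, Benjamini-Hochberg adjusted p under 0.05), where 0 of 8780 genes passed (0.0%) and the smallest adjusted p was 0.603. At an unadjusted p under 0.05, Eif3a and Eif5 were higher in ErbB4myeKO and Eif1b was lower. That is 3 of 44 members (6.82%) beside 721 of 8780 genes (8.21%). A limma fit without litter gave 0 members and 75 genes at that level. By direction, 2 members (4.55%) stood beside 3.83% of all genes on the higher side, and 1 member (2.27%) beside 4.38% on the lower side, so the members' shares lay near the background. Eif3a and Eif3l were higher in ErbB4myeKO in all 6 litters (4.55% of members, 2.51% of all genes) and Eif1b was lower in all 6 (2.27% of members, 2.31% of all genes). The groups overlapped for every tested member, as they did for all but 0.0456% of the genes.

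The mean ratio was above 0 for 30 of 44 members (68.2%) beside 49.8% of all genes, and the median log2 ratio was 0.06 beside -0.00 over all genes. Litter 2 gave the most of this, with a median member ratio of 0.25 and 32 members higher in ErbB4myeKO. In the other litters the median member ratio lay between -0.02 and 0.06, and 19 to 29 members were higher. The median over all genes in litter 2 was 0.02, so the members' ratio there did not come with a like ratio of all genes. Without litter 2 the median of the members was 0.04, and fewer members had a mean ratio above 0. The count above 0 went from 10 to 8 of the 14 eIF3 genes and from 4 to 3 of the 5 genes of the helicase and its cofactors. It rose from 3 to 4 of the 5 eIF2B genes.

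Single ratios often rested on 1 litter. With litters 1 to 6 left out in turn, the sign turned in 2, 10, 6, 2, 3 and 3 of the 44 members, and the ratio shrank by over 1.5 times with its sign kept in 4, 11, 4, 10, 4 and 3. Without litter 2 it shrank in Eif1 (0.10 to 0.053), Eif1ax (0.12 to 0.063), Eif2b1 (0.14 to 0.074), Eif3b (0.10 to 0.042), Eif3e (0.17 to 0.094), Eif3j2 (0.29 to 0.17), Eif3l (0.15 to 0.094) and Eif4a1 (0.09 to 0.020), among others. Without litter 3 it shrank in Eif1a (0.07 to 0.038) and Eif2s1 (0.10 to 0.041), among others. The ratios of Eif1b, Eif3a and Eif5 did neither in any of these, like those of Eif2b5, Eif3c, Eif3f and some others. Eif1b and Eif3a had 1 sign in all 6 litters, so theirs could not turn. Eif1b, Eif3a and Eif5 stand out by these same values, so this is no test of them.

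**Figure D1:**
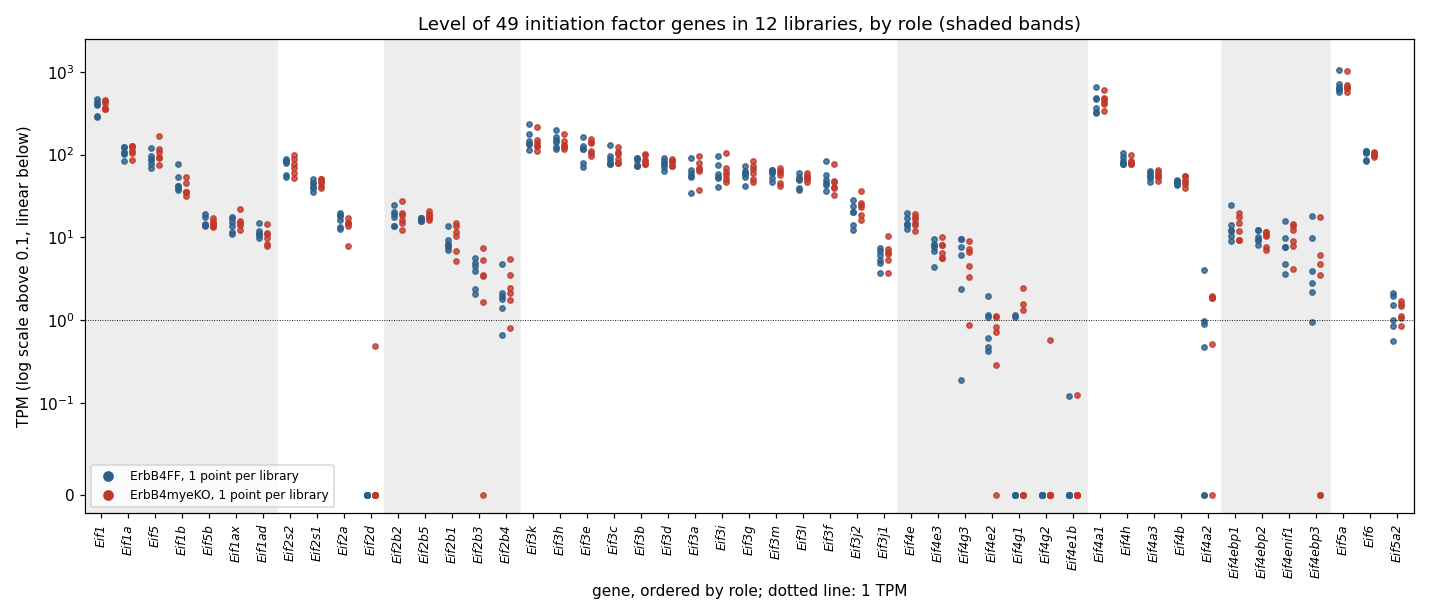
TPM of the 49 initiation factor genes (vertical axis, log scale above 0.1 and linear below) with 1 point per library, blue for ErbB4FF and red for ErbB4myeKO, the genes ordered by role in shaded bands. Levels run from the 705 TPM of Eif5a down to genes listed at 0, and the colours overlap for every gene above the dotted line at 1 TPM.

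**Figure D2:**
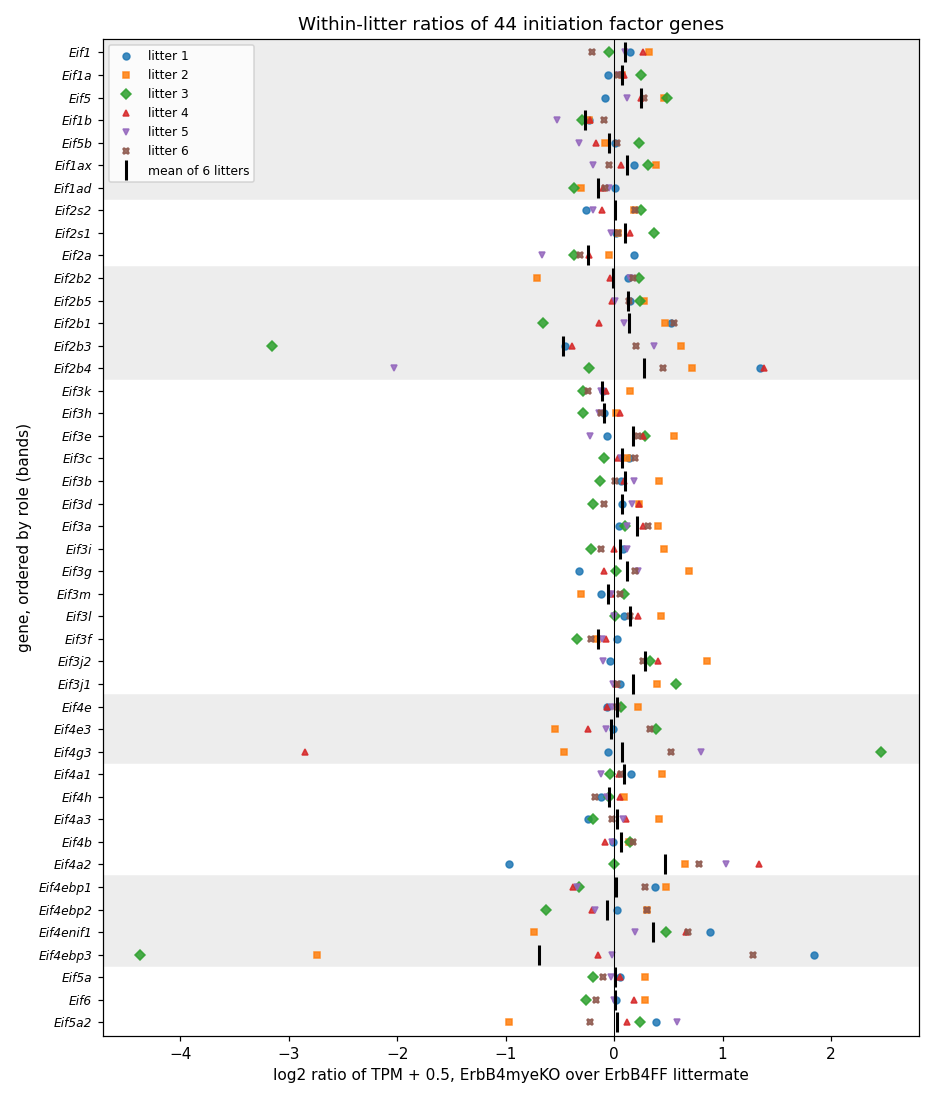
Log2 ratio of TPM + 0.5 between littermates (horizontal axis) for the 44 tested genes, 1 symbol per litter, with the mean of 6 litters as a black bar. The means lie within 0.29 of 0 for the 25 genes of at least 20 TPM, while genes under 20 TPM such as Eif4ebp3, Eif4g3 and Eif2b3 scatter widely.

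Factors of start codon scanning and subunit joining formed 20.0% of the members' TPM and summed to 703 ± 65.5 TPM in ErbB4myeKO and 665 ± 79.4 TPM in ErbB4FF (n = 6 each), higher in ErbB4myeKO in 5 of 6 litters. Of 7 tested genes, Eif5 was higher (beside 3.83% of all genes) and Eif1b lower (beside 4.38%) at an unadjusted p under 0.05, and the median log2 ratio was 0.07. Eif1b (ENSMUSG00000006941, chr9:120492232-120495330, plus strand, GRCm38) encodes a close relative of eIF1, which guards the choice of the start codon.

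Eif1b was at 35.2, 45.2, 31.96, 35.4, 53.4 and 35.3 TPM in ErbB4myeKO libraries of litters 1 to 6. In ErbB4FF libraries it was at 41.5, 53.3, 39.3, 41.4, 77.0 and 37.8 TPM. Litter 5 was highest in both genotypes, and every ErbB4myeKO library lay below its littermate although the groups overlapped. The means were 39.4 ± 8.19 and 48.4 ± 15.1 TPM (n = 6 each), with a log2 ratio of -0.27 ± 0.14 between littermates and an exact permutation p of 0.0312, the smallest that 6 pairs allow. Limma gave an SE of 0.07, a 95% interval from -0.43 to -0.10, an unadjusted p of 0.00593 (place 41 among the 8780 genes) and an adjusted p of 0.603. Litter 5 held the lowest ratio, -0.52, and litter 6 the one nearest to 0, -0.10. Without litter 5 the mean ratio was -0.22.

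Eif1, the main gene of the pair, was at 401 ± 46.9 TPM in ErbB4myeKO and 379 ± 74.5 TPM in ErbB4FF (log2 ratio 0.10 ± 0.20, exact permutation p = 0.25), with ErbB4myeKO above its littermate in 4 of 6 litters. Eif1b made up 9.03 ± 1.99% of the summed TPM of the pair in ErbB4myeKO and 11.6 ± 3.87% in ErbB4FF. This share was lower in ErbB4myeKO in 5 of 6 litters and was not tested, as Eif1b was singled out for its own values. Reads of Eif1 are the less certain of the pair, as 37.2% of the 31-base words of its transcript also occur in transcripts of other genes, against 0.199% for Eif1b.

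Eif5 (ENSMUSG00000021282, chr12:111538016-111546752, plus strand) encodes the factor that triggers GTP hydrolysis by eIF2. It was at 91.6, 117, 168, 106, 75.1 and 93.9 TPM in ErbB4myeKO libraries of litters 1 to 6. In ErbB4FF libraries it was at 97.2, 84.9, 119, 89.5, 69.1 and 77.7 TPM. The library of litter 3 was highest and that of litter 5 lowest in both genotypes, and ErbB4myeKO was the higher littermate in every litter but the first. The means were 109 ± 32.2 and 89.6 ± 17.5 TPM (n = 6 each), a log2 ratio of 0.25 ± 0.21 with an exact permutation p of 0.0625. Limma gave a 95% interval from 0.05 to 0.45, an unadjusted p of 0.0209 and an adjusted p of 0.603. All 3 of its transcripts in the table had a mean ratio above 0, at 0.24 ± 0.32, 0.51 ± 0.73 and 0.22 ± 0.24. The transcript with most of the signal, ENSMUST00000222375.1, held 58.9% of the gene's TPM in ErbB4myeKO and 59.9% in ErbB4FF.

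The other scanning factors had smaller ratios than Eif1b and Eif5. For the paralogs Eif1a and Eif1ax, which encode eIF1A, the log2 ratios were 0.07 ± 0.10 and 0.12 ± 0.22, higher in 5 and in 4 of 6 litters. Eif5b, the GTPase of subunit joining, had a ratio of -0.05 ± 0.19, with levels between 13.4 and 19.0 TPM over all libraries. Eif1ad, chosen after its values were seen, had a ratio of -0.15 ± 0.15 and was lower in 5 of 6 litters.

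Promoter sequences are shown for the genes that had 1 direction in all 6 litters or an unadjusted p under 0.05, because these carry the differences described here. Each is the 250 bases before the RefSeq start on GRCm38.p6, written 5′ to 3′ on the strand of the gene in the order Eif1b (chr9:120492356-120492605, plus), Eif3a (chr19:60790694-60790943, minus), Eif3l (chr15:79074973-79075222, plus) and Eif5 (chr12:111537851-111538100, plus). The RefSeq starts lie 115, 50, 44 and 115 bases from the starts of the deposited transcripts, and capitals mark the searched motifs. For Eif3l the deposited transcript starts inside the window, so the last 44 bases, which hold its marked motif, lie within that transcript.
Eif1b: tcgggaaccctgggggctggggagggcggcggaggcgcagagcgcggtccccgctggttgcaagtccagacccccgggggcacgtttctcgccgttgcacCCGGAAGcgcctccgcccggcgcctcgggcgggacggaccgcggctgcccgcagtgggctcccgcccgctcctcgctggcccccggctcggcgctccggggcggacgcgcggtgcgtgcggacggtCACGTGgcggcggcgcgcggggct
Eif3a: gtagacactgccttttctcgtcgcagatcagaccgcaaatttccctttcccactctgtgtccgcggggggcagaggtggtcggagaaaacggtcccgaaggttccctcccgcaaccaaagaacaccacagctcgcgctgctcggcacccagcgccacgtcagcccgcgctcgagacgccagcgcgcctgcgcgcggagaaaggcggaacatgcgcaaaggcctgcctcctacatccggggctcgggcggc
Eif3l: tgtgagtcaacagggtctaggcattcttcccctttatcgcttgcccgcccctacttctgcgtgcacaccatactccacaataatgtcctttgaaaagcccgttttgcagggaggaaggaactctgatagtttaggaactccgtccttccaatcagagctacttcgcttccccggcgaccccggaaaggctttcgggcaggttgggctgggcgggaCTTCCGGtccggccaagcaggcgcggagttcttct
Eif5: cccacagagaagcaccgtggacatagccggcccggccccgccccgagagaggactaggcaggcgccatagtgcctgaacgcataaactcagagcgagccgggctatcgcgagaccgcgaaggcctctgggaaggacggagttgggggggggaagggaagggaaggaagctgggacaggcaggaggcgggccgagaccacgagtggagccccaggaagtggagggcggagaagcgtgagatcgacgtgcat

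The motifs searched on both strands were the E-box CACGTG bound by Myc and USF factors, the ETS motif CCGGAAG, the palindromic NRF1 motif and the TATA box TATAAA, none of which contains another. Eif1b, lower in ErbB4myeKO, held an E-box and an ETS motif, Eif3l held an ETS motif, and the windows of Eif3a and Eif5 held none of the 4, so no searched motif was shared by the 3 genes that were higher. RefSeq windows were found for 37 of 49 members. Among them the E-box was in 8 (21.6%, against 6.02% of all 32851 promoter windows), the ETS motif in 10 (27.0% against 6.91%), the NRF1 motif in 1 (2.70% against 0.782%) and the TATA box in 3 (8.11% against 12.4%). The median G and C content was 62.0% for members and 52.4% for all windows. These matches describe letters in a window and no binding was measured.

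**Figure D3:**
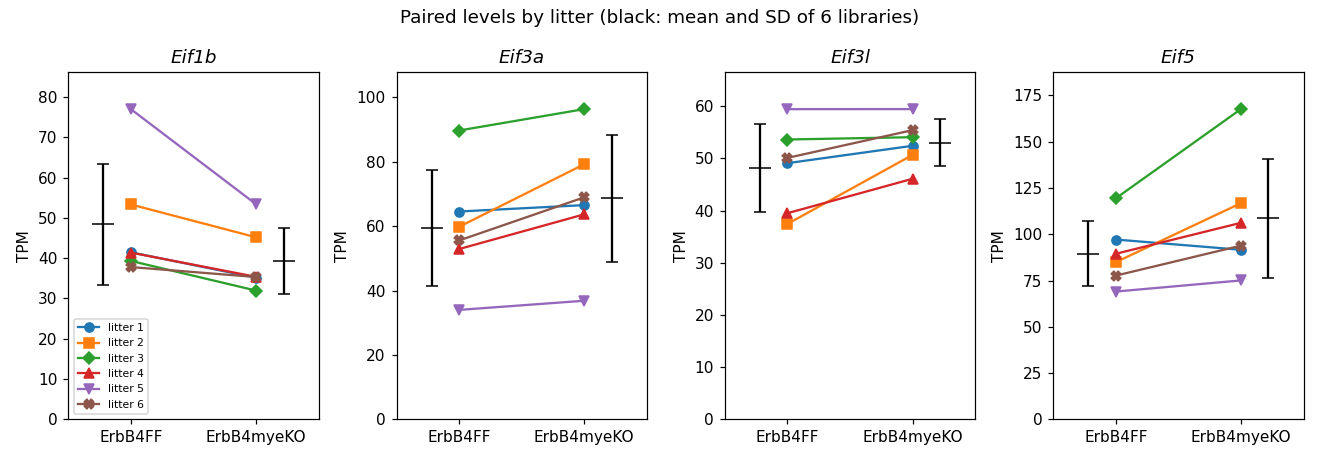
TPM of Eif1b, Eif3a, Eif3l and Eif5 in ErbB4FF (left) and ErbB4myeKO (right), 1 line per litter, with the mean and SD of 6 libraries in black and each vertical axis from 0. All lines fall for Eif1b and none fall for Eif3a or Eif3l, while the groups overlap in every panel.

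The eIF3 complex, the largest of the initiation factors, is built around the subunits encoded by Eif3a, Eif3b and Eif3c. All 14 of its genes in the table passed the filter and made up 30.5% of the members' TPM. Their sum was 1055 ± 125 TPM in ErbB4myeKO and 1032 ± 177 TPM in ErbB4FF (n = 6 each), higher in ErbB4myeKO in 3 of 6 litters. The median log2 ratio over the 14 genes was 0.09, 10 (71.4%, beside 49.8% of all genes) had a mean ratio above 0, and 1 (Eif3a) had an unadjusted p under 0.05 (7.14%, beside 8.21%). Without litter 2 the median was 0.039 and 8 genes were above 0.

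Eif3a (ENSMUSG00000024991, chr19:60761117-60790658, minus strand) encodes the largest subunit. ErbB4myeKO libraries of litters 1 to 6 held 66.6, 79.3, 96.4, 63.7, 36.9 and 69.0 TPM. Those of ErbB4FF held 64.6, 59.8, 89.7, 52.9, 34.0 and 55.6 TPM. Litter 3 was highest and litter 5 lowest in both genotypes, and within every litter ErbB4myeKO was the higher. The means were 68.6 ± 19.6 and 59.4 ± 18.2 TPM (n = 6 each), and the log2 ratio was 0.21 ± 0.14 (exact permutation p = 0.0312). Limma gave a 95% interval from 0.05 to 0.37, an unadjusted p of 0.0183 and an adjusted p of 0.603. The gene ranged 2.83-fold over the libraries, and the SD of its litter means, 0.45 on the log2 scale, was larger than the ratio of the genotypes. None of the 31-base words of its transcript occurs in another gene.

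Eif3l (ENSMUSG00000033047, chr15:79075179-79094405, plus strand), a subunit at the edge of the complex, was at 52.4, 50.7, 54.1, 46.1, 59.5 and 55.4 TPM in ErbB4myeKO libraries of litters 1 to 6. In ErbB4FF libraries it was at 49.1, 37.5, 53.6, 39.5, 59.5 and 50.1 TPM. The littermates of litters 3 and 5 were nearly equal, with log2 ratios of 0.01 and 0.00, so the count of 6 litters rests on 4 clear differences. The means were 53.0 ± 4.52 and 48.2 ± 8.38 TPM (n = 6 each), and the ratio of 0.15 ± 0.16 had an exact permutation p of 0.0312. Limma put its 95% interval from -0.02 to 0.32, with an unadjusted p of 0.0802 and an adjusted p of 0.603. Litter 2 gave the largest difference, and without it the ratio was 0.09.

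The other core subunits differed less, with log2 ratios of 0.10 ± 0.18 for Eif3b and 0.07 ± 0.10 for Eif3c, each higher in 5 of 6 litters. Eif3f, Eif3h, Eif3k and Eif3m had mean ratios below 0, of which -0.15 ± 0.13 for Eif3f was the lowest (lower in 5 of 6 litters, exact permutation p = 0.0625). The highest ratio in the complex was that of Eif3j2, 0.29 ± 0.35 (higher in 4 of 6 litters), but 94.9% of the 31-base words of its transcript and 41.3% of those of Eif3j1 occur in other genes, so the level of each is uncertain. The like holds for Eif3m (53.7%), Eif3e (42.0%) and Eif3h (37.4%).

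Expressed as shares of the summed eIF3 TPM, the subunits ran from 0.626% (Eif3j1) to 13.6% (Eif3k) in ErbB4myeKO and from 0.549% to 15.1% in ErbB4FF. The shares of Eif3a and Eif3l were higher in ErbB4myeKO in 6 of 6 litters, at 6.65 ± 2.08% against 5.93 ± 1.90% and 5.05 ± 0.182% against 4.67 ± 0.108%. Those of Eif3h and Eif3k were lower in 6 of 6, at 13.04 ± 1.16% against 14.3 ± 0.697% and 13.6 ± 2.24% against 15.1 ± 2.17%. Eif3l, with the smallest SD relative to its share, held a nearly fixed share of the summed eIF3 TPM within each genotype. The shares have 1 denominator and were described after the values were seen, so they were not tested.

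**Figure D4:**
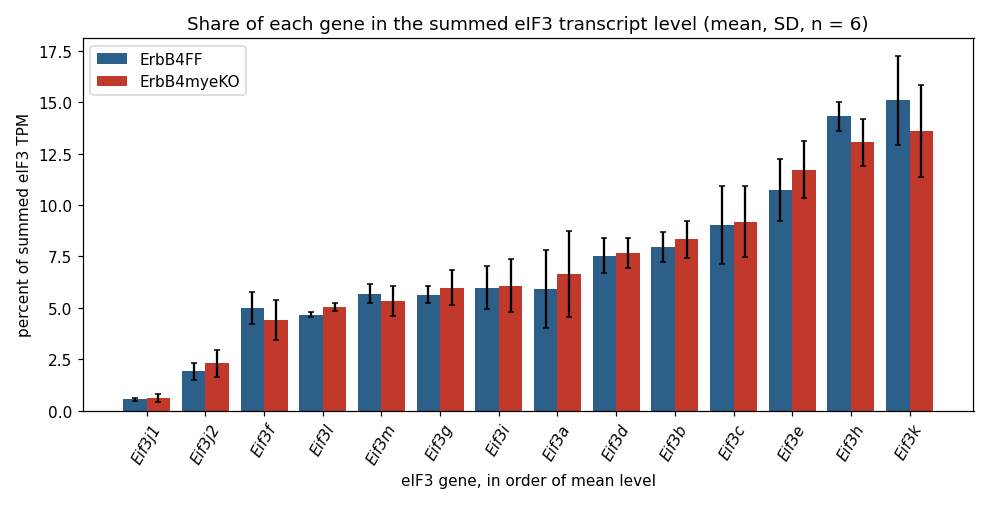
Share of each eIF3 gene in the summed eIF3 TPM (vertical axis, percent), as bars for the mean and SD of 6 libraries, with ErbB4FF in blue and ErbB4myeKO in red. Genes are in order of mean level, from Eif3j1 under 1% to Eif3k at 15.1 and 13.6%, and the error bars of Eif3l are the narrowest relative to their bars.

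The GTP-binding factor eIF2 and the proteins that deliver the initiator tRNA summed to 134 ± 21.4 TPM in ErbB4myeKO and 133 ± 18.8 TPM in ErbB4FF (n = 6 each). Eif2s1 encodes eIF2α, the subunit that stress kinases phosphorylate to lower initiation. It was at 46.1, 41.8, 50.8, 39.3, 50.2 and 46.6 TPM in ErbB4myeKO libraries of litters 1 to 6 and at 45.5, 40.6, 39.3, 35.4, 51.3 and 45.6 TPM in ErbB4FF. Only litter 3 showed a wide gap, and litter 5 went the other way. The log2 ratio was 0.10 ± 0.15 (exact permutation p = 0.0938, limma 95% interval from -0.07 to 0.26). Eif2s2, which encodes eIF2β, had a ratio of 0.01 ± 0.22. Eif2a encodes a separate tRNA-binding factor and not eIF2α, and its ratio was -0.24 ± 0.29, lower in 5 of 6 litters (exact permutation p = 0.0938).

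All 5 genes of the exchange factor eIF2B passed the filter, summing to 53.2 ± 8.69 TPM in ErbB4myeKO and 49.9 ± 8.04 TPM in ErbB4FF (n = 6 each), with the sum higher in ErbB4myeKO in 5 of 6 litters. Eif2b5, the catalytic subunit, was at 18.3 ± 1.59 and 16.6 ± 0.675 TPM, with a ratio of 0.13 ± 0.12 (5 of 6 litters, exact permutation p = 0.0938). It was the steadiest gene of the set, with a 1.32-fold range over all libraries. The ratios of Eif2b1 and Eif2b2 were 0.14 ± 0.48 and -0.01 ± 0.35. Eif2b3 and Eif2b4 lay between 0 and 7.46 TPM, and their ratios of -0.47 ± 1.38 and 0.27 ± 1.28 spread widely. The table holds 1 of 12 GENCODE transcripts of Eif2b4, so its value, and with it the eIF2B sum, describes that isoform. Limma's 95% intervals of the ratio ran from -1.57 to 0.63 for Eif2b3 and from -0.75 to 1.30 for Eif2b4.

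Cap binding rests on Eif4e, whose product holds the cap. It was at 13.9, 16.8, 14.7, 11.9, 19.3 and 17.6 TPM in ErbB4myeKO libraries of litters 1 to 6 and at 14.6, 14.4, 14.1, 12.6, 19.6 and 17.2 TPM in ErbB4FF. Littermates followed each other closely, with the lowest level in litter 4 and the highest in litter 5 for both genotypes. The log2 ratio was 0.03 ± 0.11, with 3 litters on either side of 0 (exact permutation p = 0.688, limma 95% interval from -0.14 to 0.20).

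The scaffold genes Eif4g1 and Eif4g2 were at means of 0.633 and 0.0474 TPM. The table holds 2 of 25 GENCODE transcripts of Eif4g1 and 1 of 14 of Eif4g2, the latter with 742 bases against 7995 for the longest coding transcript. These low values therefore describe the listed isoforms and not the genes. Eif4g3, chosen after its values were seen, ranged from 0.188 to 9.45 TPM with a 95% interval of its ratio from -1.30 to 1.44. Eif4e2 and Eif4e1b, relatives of Eif4e, were at means of 0.810 and 0.0204 TPM, from 1 of 8 GENCODE transcripts in the case of Eif4e2, and Eif2d at 0.0410 TPM, also from 1 of 8.

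Among helicase genes, Eif4a1 supplied most of the TPM. It was at 404, 433, 465, 334, 600 and 487 TPM in ErbB4myeKO libraries of litters 1 to 6 and at 364, 318, 477, 323, 654 and 466 TPM in ErbB4FF. Litter 5 was highest in both, and the genotypes overlapped across their whole range. ErbB4myeKO was the higher in 4 of 6 litters, and the log2 ratio was 0.09 ± 0.20 (exact permutation p = 0.344, limma 95% interval from -0.09 to 0.28), and 67.5% of the 31-base words of its transcript also occur in other genes. Its paralog Eif4a2 was the least abundant tested member, at 1.21 TPM from 1 of 25 GENCODE transcripts, and was listed at 0 in 3 libraries. The cofactors Eif4b and Eif4h, which raise the activity of the helicase, had ratios of 0.06 ± 0.11 and -0.04 ± 0.10.

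Inhibitors of eIF4E summed to 39.2 ± 6.35 TPM in ErbB4myeKO and 38.5 ± 9.66 TPM in ErbB4FF (n = 6 each). Eif4ebp1 was at 11.8, 14.9, 9.37, 9.31, 19.4 and 17.5 TPM in ErbB4myeKO libraries of litters 1 to 6 and at 8.96, 10.5, 11.9, 12.3, 24.8 and 14.3 TPM in ErbB4FF. ErbB4myeKO was the higher littermate in litters 1, 2 and 6 and the lower in the others, for a ratio of 0.02 ± 0.41 (exact permutation p = 0.906, limma 95% interval from -0.33 to 0.37). Eif4ebp2 had a ratio of -0.06 ± 0.35. Eif4ebp3 was listed at 0 in ErbB4myeKO libraries of litters 2 and 3 and at up to 18.0 TPM elsewhere. Phosphorylation, the switch on these inhibitors, is outside what RNA measures.

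Eif5a, whose product carries the amino acid hypusine and helps ribosomes past slow peptide bonds, was the most abundant member. It was at 639, 691, 571, 638, 1033 and 664 TPM in ErbB4myeKO libraries of litters 1 to 6 and at 617, 568, 654, 617, 1053 and 714 TPM in ErbB4FF. Litter 5 stood above the others in both genotypes. Littermates lay farthest apart in litter 2, where ErbB4myeKO was the higher (log2 ratio 0.28), and in litter 3, where it was the lower (-0.20). The log2 ratio was 0.01 ± 0.16 (exact permutation p = 0.875, limma 95% interval from -0.16 to 0.17). Eif6, which keeps the large ribosomal subunit from joining too early, was at 100.2 ± 5.35 and 100.1 ± 12.7 TPM, with a ratio of 0.01 ± 0.20.

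The spread between litters was set beside the difference between genotypes. In 43 of 44 members (97.7%, beside 92.1% of all genes) the SD of the 6 litter means was larger than the size of the mean ratio, Eif2b5 being the exception, and in 39 (88.6%, beside 91.8%) the mean ratio was smaller than its own SD between litters. A mean over 6 litters varies less than a single litter, which favours the litters in the first count. Were the litters alike, the SD of the litter means would be about 0.5 times the SD of the ratio, and it was larger than that in 42 of 44 members (95.5%, beside 89.6% of all genes). Deviations of littermates over the members correlated nevertheless at only 0.10, 0.27, 0.15, -0.08, 0.73 and 0.21 in litters 1 to 6. The median SD of the litter means was 0.30 on the log2 scale, and the median size of a ratio was 0.10. Limma's 95% intervals lay within 0.5 of 0 for 34 of 44 members. These were 24 of the 25 members of at least 20 TPM, where the median SD of the ratio was 0.16, and 10 of the 19 members under 20 TPM, where it was 0.35. Eif4e, Eif2b5 and Eif5b were among those 10, and the other 9 had wider intervals.

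**Figure D5:**
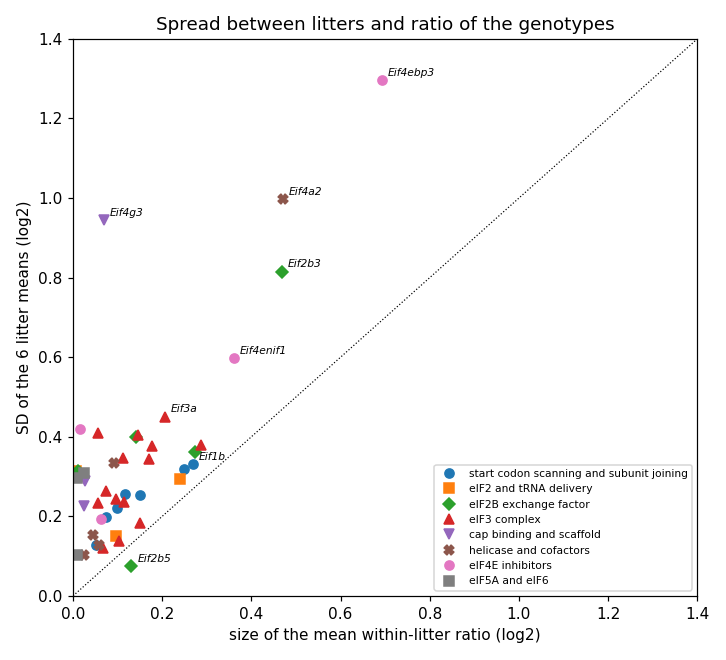
SD of the 6 litter means (vertical axis, log2) against the size of the mean within-litter ratio (horizontal axis, log2) for the 44 tested genes, with symbols for roles and a dotted line of equality. Points lie above the line for 43 genes, and Eif2b5 lies below it.

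The regulators and partners of initiation were described by 6 lists of 47 genes, of which 42 were tested. Abce1 and Gspt1 were higher in ErbB4myeKO at an unadjusted p under 0.05 (4.76%, beside 3.83% of all genes) and none was lower (4.38% of all genes), and 0 passed the adjusted threshold by limma. A limma fit without litter gave 0 of the 42 genes at that level, with unadjusted p of 0.0835 for Abce1 and 0.389 for Gspt1. The median log2 ratio over the 42 genes was 0.08. In all 6 litters 3 of them were higher (Abce1, Gspt1 and Pabpc4, beside 2.51% of all genes) and 1 was lower (Ppp1ca, ratio -0.10 ± 0.07, beside 2.31%). Abce1, which recycles ribosomes and binds eIF3, was at 27.9 ± 6.82 TPM in ErbB4myeKO and 21.2 ± 5.11 TPM in ErbB4FF (ratio 0.38 ± 0.26, higher in 6 of 6 litters, exact permutation p = 0.0312, n = 6 each). Gspt1, the release factor eRF3a, was at 71.3 ± 29.8 and 57.4 ± 29.0 TPM (0.34 ± 0.31, higher in 6 of 6 litters, exact permutation p = 0.0312). Limma gave both an adjusted p of 0.603. By list, the median ratio was -0.05 for 7 eIF2α kinase and phosphatase genes, 0.13 for 13 genes of mTOR, S6K and MNK control, 0.07 for 11 helpers of initiation and poly(A) binding, 0.01 for 5 elongation factors, 0.18 for 2 termination factors and 0.18 for 4 genes of hypusine synthesis.

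Leaving out single litters moved the count of members at an unadjusted p under 0.05. On the higher side it was 5 without litter 5 (Eif2b4, Eif3a, Eif3e, Eif3j2 and Eif5, beside 4.36% of all genes in that fit) and 1 without litter 3 (Eif3a, beside 4.51%), litter 4 (Eif5, beside 2.65%) or litter 6 (Eif5, beside 2.65%). It was 3 without litter 1 (Eif3a, Eif3j2 and Eif5, beside 3.83%), and without litter 2 Eif4enif1 took the place of Eif5 beside Eif3a (2.23% of all genes). On the lower side it was 3 without litter 1 (Eif1b, Eif2a and Eif3f, beside 4.38%) and 2 without litter 2 (Eif1b and Eif3k, beside 2.46%). Eif1b was lower in every litter, so its direction could not turn in these fits. Without litter as a block its ratio was the same, and its unadjusted p by limma was 0.189 instead of 0.00593.

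Markers of cell types and of dividing cells at an unadjusted p under 0.05 are given here with their lists. These were 1 of 8 tested for macrophages, 1 of 4 for neutrophils, 1 of 3 for dendritic cells and 1 of 5 for proliferation. Over all genes the share was 8.21%, and each of these markers had an adjusted p of 0.603 by limma. All 6 litters were higher in 2.51% of all genes and lower in 2.31%. Fcgr1, an interferon-induced Fc receptor, was lower in ErbB4myeKO in 6 of 6 litters (log2 ratio -0.86 ± 0.74), and 4 of the 8 macrophage markers had a mean ratio above 0. Xcr1, a chemokine receptor of dendritic cells, was higher in 5 of 6 litters (0.63 ± 0.66), as was the sum of the dendritic cell markers. Most of that sum was Ccr7 (53.5 TPM in ErbB4myeKO, 41.7 TPM in ErbB4FF), which the study also counts in its M1 gene set. The 3 tested markers of this list had mean ratios above 0. Flt3 and Zbtb46 were near 0 TPM, and Zbtb46 was lower in 4 of 6 litters (-0.18 ± 0.30). Camp, a granule protein of neutrophils, was higher in 6 of 6 (0.45 ± 0.41), while the neutrophil sum was higher in 3 of 6. Mki67, a gene of dividing cells, was higher in 5 of 6 (0.42 ± 0.38), but 2 of the other 4 tested proliferation markers had a mean ratio below 0. The proliferation sum was higher in 3 of 6 litters, with a median of 187 TPM in ErbB4myeKO and 214 TPM in ErbB4FF. The part of these cells in the values of the initiation factors was not tested.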

How the data were processed

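RNA from 12 M1-activated BM-Mɸ cultures (6 ErbB4myeKO, 6 ErbB4FF littermates) was sequenced by the authors as stranded single-ended polyA libraries and pseudoaligned with kallisto to the mouse transcriptome. Versions are not given in the sources used here, and the submitters' processing notes name mm10 and CASAVA. The authors deposited TPM for principal (APPRIS) isoforms: 29213 lines, of which 405 repeat a transcript and were dropped. TPM carry no depth, but a deposited column of the authors' mean natural log counts per transcript followed TPM and length (r = 0.979 over 8326 transcripts, which are not replicates), at about 6.03 estimated counts per TPM and kb. Deposited p-values, q-values and fold changes of the authors' test were not used.

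TPM were summed per gene, 8780 genes averaging 1 TPM or more were kept, and log2(TPM + 0.5) was fitted with limma 3.58.1 in R 4.3.3 (eBayes with trend, litter as a block, Benjamini-Hochberg adjustment). Fold changes on this scale understate those of low genes. For single genes an exact permutation test (two-sided) used the 64 swaps of littermates (smallest p 0.0312). Litter comes from shared numbers and batch letters on the labels. Deviations of littermates correlated at r between 0.273 and 0.774 over all genes and between -0.083 and 0.728 over the members. The study's model also used sex, which is not on the labels. Positions and isoform counts came from GENCODE M21 (GRCm38) and promoters from RefSeq (GRCm38.p6). Python 3.11.15 with numpy 2.4.6, pandas 2.3.3 and matplotlib 3.10.9 was used.

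Members and lists were chosen with earlier results of these data known. Named members were the main factors of each role, those with an unadjusted p under 0.05, those with 1 direction in all 6 litters, and the most and least abundant. List genes were named at an unadjusted p under 0.05. Any other gene was named after its values were seen. Alternatives were no block, a covariate from 3 Y-linked genes, pseudocounts of 0.1 and 1, a filter at 5 TPM and none, median-of-ratios scaling, limma without trend, the highest transcript alone, and each litter left out.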

Additional observations from a re-analysis of the deposited data

Results flagged for a closer look

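Of 84 groups of 6 values (the libraries of a genotype, or the within-litter ratios of a gene), 7 held a value far from the others by Dixon's criterion, which chance meets in about 1 group in 20. Eif5a in litter 5 stood apart in both genotypes, at 1033 TPM in ErbB4myeKO (others 571 to 691) and 1053 TPM in ErbB4FF (others 568 to 714), and these libraries also had the highest shares of TPM in principal isoforms, 71.4% and 74.7%. The part of that share in the level of Eif5a was not tested. Eif4h was at 99.3 TPM in the ErbB4myeKO library of litter 5 (others 76.0 to 83.7), and its ErbB4FF littermate, at 104 TPM, was also the highest of its group.

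The ratio of Eif2b2 was -0.71 in litter 2, where the other litters lay between -0.04 and 0.23. For Eif2b3 the ratio was -3.16 in litter 3, where the gene is listed at 0 in the ErbB4myeKO library (other ratios -0.46 to 0.62). Eif4g2 was at 0.568 TPM in the ErbB4myeKO library of litter 2 and listed at 0 in the other 11, which gave a ratio of 1.10 in that litter and 0 elsewhere.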

How the results depend on the processing

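TPM hold no read counts, and the spread between litters limits what could be seen, most for the 9 members under 20 TPM with wide intervals. Of 26 named genes in the fit, 17 kept their sign in every alternative that gave a value, which was all 15 for 15 of the 17. The fits without litter, without trend or with another filter leave a log2 ratio as it is, so they could not turn a sign. The fit at 5 TPM held no value for Eif2b3, Eif2b4 or Eif4a2, and Eif4a2 fell below the filter without litter 1. No named gene reached an adjusted p below 0.499 in any. Without the replicate block for litter, 75 genes instead of 721 had an unadjusted p under 0.05, and 0 members were higher and 0 lower at that level. Among the listed regulators and partners 0 instead of 2 genes were called without the block. With the highest transcript of a gene alone, 1 member was higher (Eif3a, beside 3.5% of all genes), and with no filter 2 members were lower (Eif1b and Eif3f, beside 2.84%).

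With 1 litter left out, all genes at an unadjusted p under 0.05 numbered 413 (without litter 2) to 864 (without litter 5), and 458 without litter 4. Members were 1 to 5 on the higher side and 1 to 3 on the lower side. Genes at an adjusted p under 0.05 numbered 0 to 1 (Igkv1-88, adjusted p by limma 0.0490 without litter 3). The median log2 ratio of the members lay between 0.04 and 0.07 over the litters left out.

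Signs turned for Eif4ebp1 (-0.045 with the Y-linked covariate) and Eif4ebp2 (0.086 with the highest transcript alone). Over the litters left out, log2 ratios crossed 0 for Eif4ebp1 (-0.076 to 0.096), Eif4ebp2 (-0.14 to 0.051), Eif2b2 (-0.060 to 0.13), Eif2b3 (-0.69 to 0.069), Eif2s2 (-0.041 to 0.061), Eif4e (-0.013 to 0.044), Eif5a (-0.046 to 0.050), Eif5b (-0.11 to 0.0035) and Eif6 (-0.045 to 0.062). The cause was not tested.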

Other observations

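Among the 11 transcripts of Eif5a in the table, 4 carried most of the gene's TPM and did not keep 1 mix across libraries. ENSMUST00000108608.7 was at 131 to 178 TPM in the 6 ErbB4myeKO libraries and at 157 to 184 TPM in the ErbB4FF libraries of litters 1, 2, 3, 4 and 6, but at 0.287 TPM in the ErbB4FF library of litter 5. In that library ENSMUST00000108612.7 was at 556 TPM, against 113 to 173 TPM in the other ErbB4FF libraries. Its littermate was also high for this transcript, at 395 TPM against 93.9 to 215 TPM in the other ErbB4myeKO libraries. The sum over the gene was 1053 TPM in ErbB4FF and 1033 TPM in ErbB4myeKO of this litter. The sum of the gene is the value used in the comparisons.

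For Eif5, the transcript ENSMUST00000050993.10 was listed at 0 in both libraries of litter 5 and lay between 24.2 and 59.8 TPM in the other 10 libraries, and the sum over the gene was lowest in litter 5 for both genotypes (75.1 TPM in ErbB4myeKO and 69.1 TPM in ErbB4FF). ENSMUST00000222375.1, at 67.7 and 57.7 TPM in litter 5, lay within its range in the other litters. These splits between transcripts of 1 gene are estimates from reads that the transcripts share, and were not tested. They were picked after the values were seen.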
